A study of Drosophila melanogaster with 12 samples.

Results

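Binding of CLAMP was compared between mock-treated Kc167 cells and Kc167 cells given dsRNA against CP190, from the 4 CLAMP immunoprecipitations among the 12 samples of the series. The members were taken by sample label: 2 CLAMP libraries from mock cells and 2 from the knockdown cells (dsCP190). Kc167 is an embryonic line of Drosophila melanogaster whose label gives it as female. According to the labels' protocols, mock cells were nucleofected without RNA and dsCP190 cells with 12 µg of dsRNA. All cells were then grown for 6 days, and crosslinked, sonicated chromatin was precipitated with 5 µg of antibody. The 4 lists held 12354 of the 33172 peaks in the 8 immunoprecipitations, and these merged into 5177 CLAMP regions. The labels do not say whether the 2 replicates of a group came from separate cultures.

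CLAMP, a protein with several zinc fingers, recognises GA-rich DNA at promoters and enhancers across the genome. In males it helps to bring the dosage compensation complex to the X chromosome, and it also binds the histone gene cluster. CP190 is a cofactor of chromatin insulators, the protein assemblies that limit contact between neighbouring regulatory domains, and it is found at many gene promoters. The comparison asks where CLAMP was still found after the knockdown of CP190.

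In the CP190 libraries of the same treatments, fewer CP190 peaks were called after the knockdown, with 7669 and 7964 peaks listed under mock treatment against 2047 and 3138 under dsCP190. These counts are not adjusted for depth and are no measure of the CP190 protein. Local background, used here as a measure of depth, differed between the CLAMP lists. At summits shared between lists, the local background of dsCP190 replicate 1 was 0.368 and 0.445 of that of mock replicates 1 and 2, and that of dsCP190 replicate 2 was 0.359 and 0.429. By this measure the dsCP190 libraries were shallower than the mock libraries but close to each other, at a ratio of 0.958. Read numbers were not used, and the control library behind the background is not given in the sources used here. Fragment numbers behind each peak were recovered from the deposited values as described in the processing notes. At the summits, the median number was 75 and 67 fragments in the mock libraries and 45 and 46 in the dsCP190 libraries.

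Fewer CLAMP peaks were called after CP190 knockdown, and the 2 knockdown libraries differed widely. Mock replicates 1 and 2 held 4471 and 4514 peaks on the chromosome arms, dsCP190 replicate 1 held 2468, and dsCP190 replicate 2 held 901. The group means were 4492.5 ± 30.4 and 1684.5 ± 1108 peaks (SD, n = 2 libraries each), a ratio of 0.375. The groups did not overlap, and the two-sided exact permutation p was 0.333, the smallest that 2 libraries against 2 can give. That limit holds for every measure of a library given here, so no difference between treatments could pass a conventional threshold in this design.

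The order of the libraries was the same at stricter thresholds. At a −log10 q of at least 10, the mock lists held 2903 and 2912 peaks and the dsCP190 lists 1580 and 605. At a −log10 q of at least 50, they held 1330, 1300, 608 and 135. The length of DNA under peaks was 3252 and 3273 kb in the mock libraries, 1603 kb in dsCP190 replicate 1 and 461 kb in replicate 2. Among the CP190 lists the order of the knockdown libraries was the opposite, since replicate 1 held fewer CP190 peaks than replicate 2.

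**Figure D1:**
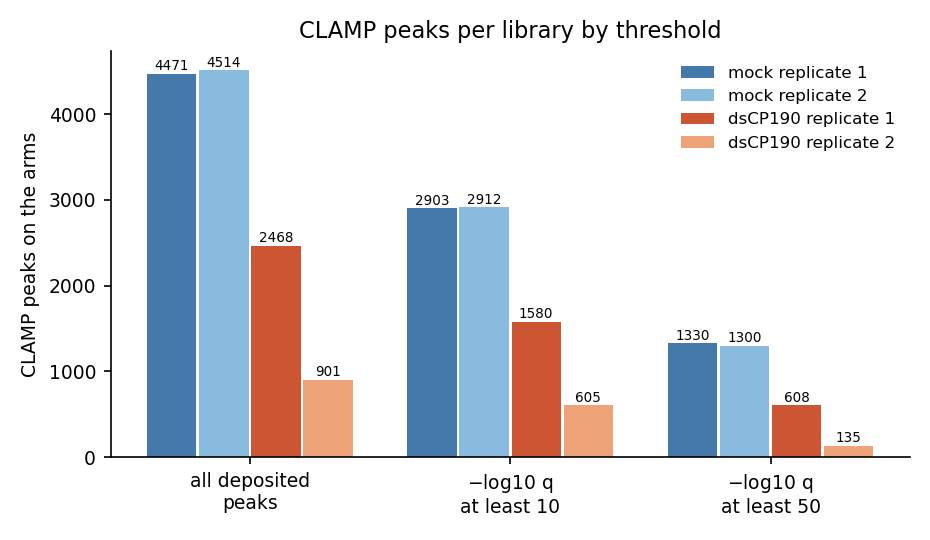
CLAMP peaks on the chromosome arms in each of the 4 libraries, for all deposited peaks and for peaks with a −log10 q of at least 10 or 50; each bar is 1 library. The mock bars are level with each other at each threshold, while dsCP190 replicate 2 holds 901, 605 and 135 peaks, the fewest each time.

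CLAMP mostly stayed called at its strongest places and was mostly no longer called at its weakest. Of the 5177 regions, 3654 were called in both mock lists. Of these, 801 (21.9%) were also called in both dsCP190 lists and are termed kept, 1387 (38%) were called in dsCP190 replicate 1 but not 2, 5 (0.137%) in replicate 2 but not 1, and 1461 (40%) in neither and are termed lost. The words kept and lost refer to the calls and not to the amount of CLAMP. Called shares were 59.9% of the 3654 regions in dsCP190 replicate 1 (95% Wilson interval 58.3% to 61.5%) and 22.1% in replicate 2 (20.7% to 23.4%). These intervals cover counting error only. Gained regions, called in both dsCP190 lists and in neither mock list, numbered 2, which is 3.45% of the 58 regions in neither mock list.

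Lists that differ in length share few regions for that reason alone, so the regions were divided into quintiles by their mean rank of fold enrichment in the 2 mock lists. Fold enrichment here is the authors' peak-caller value for each peak. It serves to order and describe the peaks of a given list. In dsCP190 replicate 1, 99.9% of the strongest quintile was called, and 92.1%, 62.2%, 31.3% and 14.0% of the quintiles below it. In dsCP190 replicate 2, the shares were 80.4%, 25.6%, 2.88%, 0.821% and 0.547%. A single region of the strongest quintile was lost, against 85.9% of the weakest.

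Depth, as measured by local background, was set against these shares by scaling the fragments of each mock region to the background of the dsCP190 library. After scaling, 3148 regions (86.2%) still reached the lowest −log10 p on the list of dsCP190 replicate 1 in both mock libraries, and 2142 of them (68.0%, 66.4% to 69.6%) were called there. For dsCP190 replicate 2, 2759 regions (75.5%) reached its lowest −log10 p, and 805 of them (29.2%, 27.5% to 30.9%) were called. Among the 2759 regions that reached both thresholds, 672 (24.4%) were lost and 800 (29.0%) were kept. Restricted in this way, the number of lost regions was 672 in place of 1461. In the second quintile every region reached both thresholds after scaling, and dsCP190 replicate 2 called 25.6% of them. The scaling uses local background and takes no account of differences between immunoprecipitations, whose part in the result was not tested.

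**Figure D2:**
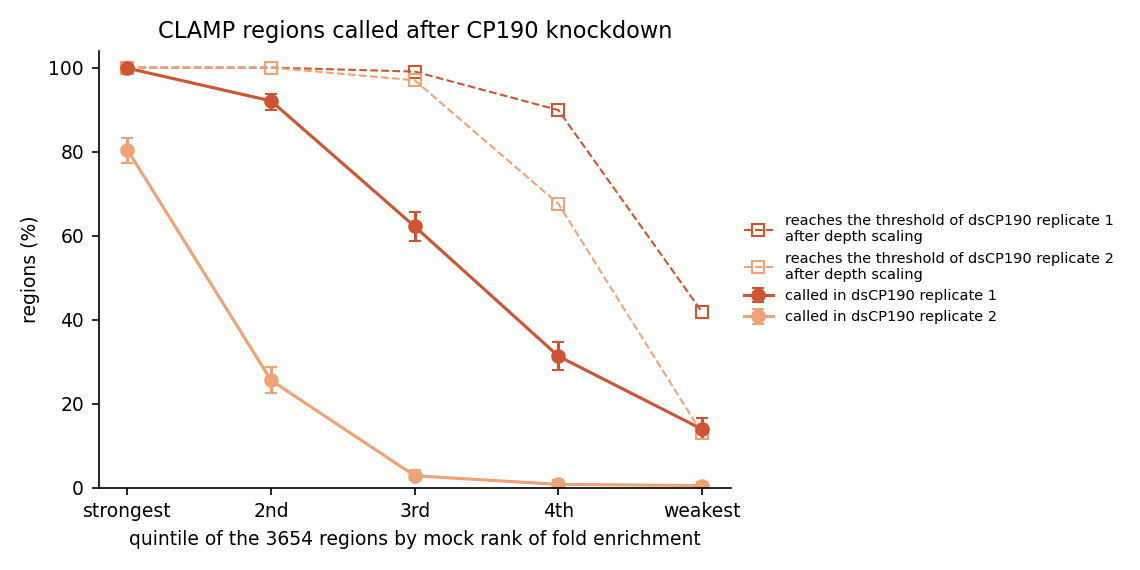
Share of the 3654 regions of both mock lists, by quintile of mock fold-enrichment rank, that were called in each dsCP190 library (filled circles, with 95% Wilson intervals) and that reached that library's threshold once mock fragments were scaled to its background (open squares). Called shares run from 99.9% to 14.0% in replicate 1 and from 80.4% to 0.547% in replicate 2, and lie below the open squares except in the strongest quintile of replicate 1, where they are close.

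The 801 kept regions were the tall, broad CLAMP peaks of mock cells. Their median width in mock replicate 1 was 1054 bp, against 718 bp for regions called in dsCP190 replicate 1 only and 467 bp for lost regions. Their median fold enrichment in that list was 11.5, against 4.92 and 2.86. The classes were formed by calls that depend on height, so this order is a description.

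Within the kept regions the 2 knockdown libraries differed at nearly the same background. The median summit held 292 and 268 fragments over a background of 23.2 and 19.1 in the mock libraries. In dsCP190 replicate 1 it held 108 fragments over 8.50, and in replicate 2 it held 47 over 8.17. Replicate 2 thus had fewer CLAMP fragments at the same places than replicate 1. Median width of the kept regions followed the same order, at 1054, 1079, 791 and 487 bp.

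Where CLAMP was called in both treatments, its summits lay at nearly the same positions. Between a mock and a dsCP190 list, summits of the same region lay a median of 23 to 28 bp apart over the 4 pairs, and the replicate pairs gave 26 bp in mock and 23.5 bp in dsCP190 cells. Lost regions have no such distance. Distances between treatments were thus within the range of those between replicates or beyond it by no more than a few bases. Over the regions that 2 lists shared, Spearman's correlation of fold enrichment was 0.915 between the mock lists and 0.774 between the dsCP190 lists. Between treatments it was 0.855 and 0.872 for dsCP190 replicate 1 and 0.641 and 0.674 for replicate 2. These correlations run across regions of libraries that differ in local background, and regions are not replicates.

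With lists of equal length, most strong CLAMP regions were shared between treatments. Each list was cut to its 901 strongest peaks by fold enrichment, the length of the shortest. The mock lists then shared 87.7% of their peaks and the dsCP190 lists 78.5%. Mock and dsCP190 replicate 1 shared 82.2% and 84.4%, and mock and dsCP190 replicate 2 shared 71.8% and 75.4%. The pairs that include dsCP190 replicate 1 lay between the replicate pairs, and those that include replicate 2 lay below them. Of 782 regions in both shortened mock lists, 583 (74.6%) were in both dsCP190 lists and 57 (7.29%) in neither. In turn, 38 regions were in both shortened dsCP190 lists and in neither mock list, which is 23.2% of the 164 regions in neither mock list and 5.52% of the 688 in both dsCP190 lists.

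Of the 57 regions that left the top of the list, 13 (22.8%) had their mean summit at the end of a named gene, close to the 9 (23.7%) of the 38 that entered it. The genes given here for each direction stand near the top by mean rank and were chosen after their values were seen. At an end of Got2, a mitochondrial aspartate aminotransferase (chr2L:1986801-1988042), fold enrichment was 17.1, 21.6 and 6.43 in mock replicates 1 and 2 and dsCP190 replicate 1, with no peak in replicate 2. At Gycbeta100B, a subunit of soluble guanylyl cyclase, it was 16.8, 13.7 and 5.36, again with no peak there. Inside trx, the histone methyltransferase that keeps Hox genes active, it was 9.85, 15.9 and 6.42, likewise without a peak there. These regions were high in both mock lists and absent from the full list of dsCP190 replicate 2.

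The region with the highest mean rank among the 38 that entered the top of the list (chr3L:3069638-3071515) had its mean mock summit at an end of PAN3, a subunit of a deadenylase complex. By its mean summit in the shortened lists it had no named gene, so it is not among the 9 counted at a named gene end. Its fold enrichment was 7.72 and 7.93 in the mock lists and 13.0 and 14.2 in the dsCP190 lists. Inside crp, a basic helix-loop-helix factor (chr2L:16283612-16285569), fold enrichment was 7.63, 8.46, 10.3 and 5.77 in mock replicates 1 and 2 and dsCP190 replicates 1 and 2. At an end of cad, a homeodomain activator of posterior development, it was 7.64, 8.17, 9.97 and 5.12. At tsh, a zinc-finger regulator of trunk identity, it was 7.63, 8.46, 8.25 and 5.46. At crp and cad, dsCP190 replicate 1 was above both mock values and replicate 2 below both, while at PAN3 both dsCP190 values were above both mock values. Of the 38 regions, 11 (28.9%) overlapped CP190 of mock cells, against 30 (52.6%) of the 57 and 277 (47.5%) of the 583.

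CLAMP was denser on the X chromosome than on the autosomes in each of the 4 lists of these female-labelled cells. The X held 50.2 and 50.2 peaks per Mb in the mock lists, 28.6 in dsCP190 replicate 1 and 11.4 in replicate 2. The autosomes held 30.1, 30.5, 16.4 and 5.80 peaks per Mb. The ratio of X to autosomes was 1.67, 1.65, 1.74 and 1.97, and for CP190 it was 1.09, 1.11, 1.20 and 1.15. As a share of all CLAMP peaks, the X held 25.8% ± 0.175 in mock and 28.1% ± 1.75 in dsCP190 cells (SD, n = 2 each), a difference of 2.22 percentage points that was set mostly by dsCP190 replicate 2 (exact permutation p = 0.333).

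Within a quintile of mock rank, dsCP190 replicate 1 called similar shares of X and autosomal regions, at 61.3% and 62.5% in the third quintile. In the strongest quintile, dsCP190 replicate 2 called 85.3% of X regions (79.7% to 89.6%) and 78.7% of autosomal regions (74.98% to 81.9%), and these intervals overlap. The roX2 gene, which encodes an RNA of the dosage compensation complex, had a CLAMP region at an end with a fold enrichment of 5.71, 6.07 and 4.34 and no peak in dsCP190 replicate 2. Sxl, the female switch gene that blocks dosage compensation, had a weak region, at 1.73 and 1.51 in the mock lists, that was lost at an end, while 2 further regions inside the gene were called in dsCP190 replicate 1. Of 10 dosage compensation genes, 2 had CLAMP at an end in both mock lists.

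CLAMP summits were enriched near gene ends in each list. Summits within 500 bp of the annotated start or end of a protein-coding gene made up 35.1% and 36.5% of the mock lists, 33.2% of dsCP190 replicate 1 and 29.5% of replicate 2, where such windows cover 15.1% of the arms. Summits elsewhere inside a gene made up 51.8%, 50.5%, 55.1% and 54.6%, each below the 56.8% of the arms that lies there. The share at gene ends was lower in both dsCP190 lists, by 4.42 percentage points in the mean (exact permutation p = 0.333). With 1 threshold for all lists, the share differed by −4.10 points at a −log10 q of at least 3, whereas at a −log10 q of at least 10 the difference was 0.715 points in the other direction.

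Within the third quintile, dsCP190 replicate 1 called 76.8% of regions at gene ends (70.4% to 82.1%), 62.0% of those inside genes (57.2% to 66.5%) and 38.7% of those between genes (30.4% to 47.6%). Regions between genes were thus called least often there, with intervals that do not overlap the others. In the strongest quintile the 3 shares were 100%, 100% and 99.0%. Replicate 2 gave 81.0%, 79.7% and 81.8% in that quintile. In the second quintile it gave 22.4%, 25.4% and 33.0%, and in the third 3.03%, 2.179% and 5.04%. There the regions between genes had the highest shares, so the order by place in replicate 1 was not seen in replicate 2.

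After the knockdown, the shares of CLAMP regions called with and without CP190 differed by a few percentage points. Of the 3654 regions, 1545 (42.3%) overlapped a CP190 region of both mock CP190 lists. Among these, CP190 was lost from 509, in that neither dsCP190 CP190 list called it, and kept at 669 in both lists. Of regions without CP190, 57.7% were called in dsCP190 replicate 1 and 21.5% in replicate 2. Of regions whose CP190 was lost, 63.5% (59.2% to 67.5%) and 19.8% (16.6% to 23.5%) were called. Of regions whose CP190 was kept, 62.9% (59.2% to 66.5%) and 25.3% (22.1% to 28.7%) were called. In each library the intervals of lost and kept CP190 overlap.

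Within quintiles of CLAMP strength the shares differed more in the middle of the range. In the third quintile, dsCP190 replicate 1 called CLAMP at 80.8% of regions with kept CP190 (70.7% to 87.98%), 67.8% with lost CP190 (58.8% to 75.7%) and 55.8% without CP190 (51.3% to 60.2%). In the second quintile the shares were 100%, 90.7% and 90.0%. In dsCP190 replicate 2, the second quintile gave 29.8%, 16.7% and 27.2%. In these quintiles the shares for lost CP190 lay below those for kept CP190, with overlapping intervals in the third quintile of replicate 1 and the second of replicate 2. The order did not hold in every quintile, and the difference between lost and kept CP190 was not tested. CP190 overlapped 71.4% of CLAMP regions at gene ends and 28.8% of those inside genes, so place moves with CP190, and its part in this order was not tested. The mean difference between lost and kept CP190 over both libraries was −2.45 percentage points, and it was 6.80 points in the other direction where summits of the 2 proteins had to lie within 100 bp of each other. Without dsCP190 replicate 2 it was 0.528 points.

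**Figure D3:**
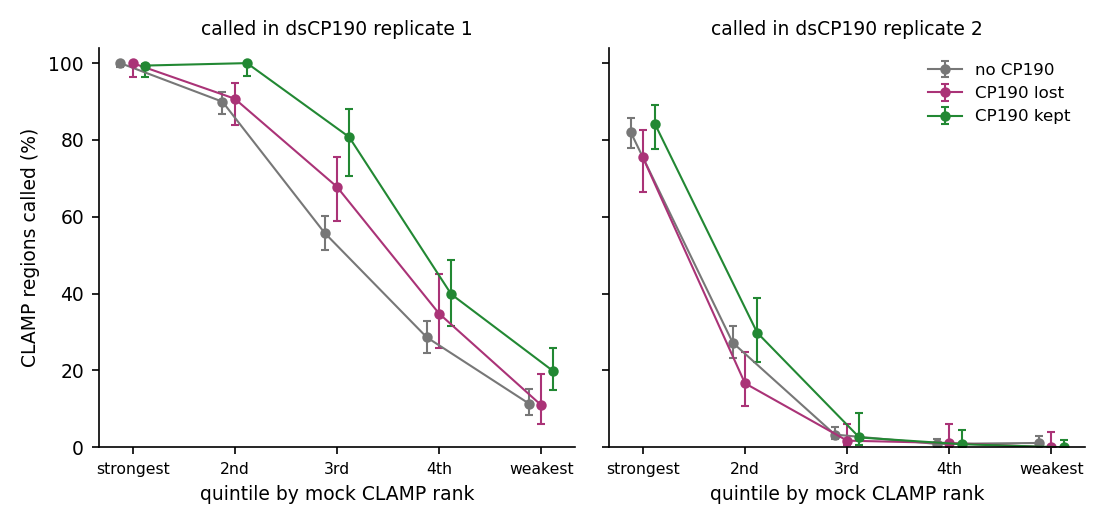
Share of CLAMP regions of both mock lists called in dsCP190 replicate 1 (left) and replicate 2 (right), by quintile of mock CLAMP rank, for regions without CP190, with lost CP190 and with kept CP190; bars are 95% Wilson intervals. In the third quintile of replicate 1 the shares are 55.8%, 67.8% and 80.8%, while in replicate 2 every group is at 3.32% or less from the third quintile on.

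Developmental transcription factor genes carried strong CLAMP regions that stayed called. Over all 15881 protein-coding and lncRNA genes, 1825 (11.5%) had a CLAMP region of both mock lists within 500 bp of an end, and 2644 (16.6%) had one at an end or inside. Of the 1825 bound genes, 337 (18.5%) had a kept region at an end, 774 (42.4%) lost every such region, and 714 had CLAMP called in 1 dsCP190 list. Gene lists are given by their counts beside these shares. The shares cover regions of any strength, whereas 80.4% of all regions in the strongest quintile were kept.

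Of 45 homeodomain genes outside the Hox complexes, which encode regulators of body pattern and cell fate, 27 (60%, 45.5% to 73.0%) were bound at an end, and 22 of these had a kept region. Of the 28 regions at their ends, 27 did not overlap CP190 and 20 lay in the strongest quintile. CP190 overlapped 71.4% of all regions at gene ends. At Vsx1, a regulator of visual system cells (chrX:5593686-5594451), fold enrichment was 15.1 and 17.9 in the mock lists and 33.4 and 28.6 in the dsCP190 lists. At caup, an Iroquois factor of bristle and wing patterning, it was 22.4, 24.3, 24.0 and 24.9. At Dr, which patterns the dorsal nerve cord and muscle, it was 26.8, 37.3, 20.5 and 21.4. These regions ranked among the strongest in each of the 4 lists. The 3 genes whose regions were lost were exd, gsb-n and hth, with mock fold enrichments between 2.11 and 5.12, and hth had a kept region inside the gene.

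The Hox complexes showed the same. Of 12 genes, 5 were bound at an end (lab, pb, Dfd, Scr and abd-A), each with a kept region and without CP190. Of these 5 regions, 3 lay in the strongest quintile. At Scr, which specifies the labial and first thoracic segments, fold enrichment was 12.6, 17.6, 19.7 and 9.39. The strongest kept region of all by mock rank lay inside Abd-B, the Hox gene of the last abdominal segments (chr3R:16948387-16949123), at 28.6, 34.9, 35.2 and 16.4. Of 16 Polycomb group genes, whose products repress Hox genes, 5 were bound, and each region was kept. All 5 lay in the strongest quintile, where dsCP190 replicate 2 called 80.4% of all regions. At Psc fold enrichment was 13.6, 18.0, 22.8 and 12.9. Of the 8 bound T-box and Sox genes, 4 were kept and the others were called in dsCP190 replicate 1 only. The T-box gene mid (chr2L:5460884-5461938) gave 28.1, 25.7, 33.4 and 15.4.

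**Figure D4:**
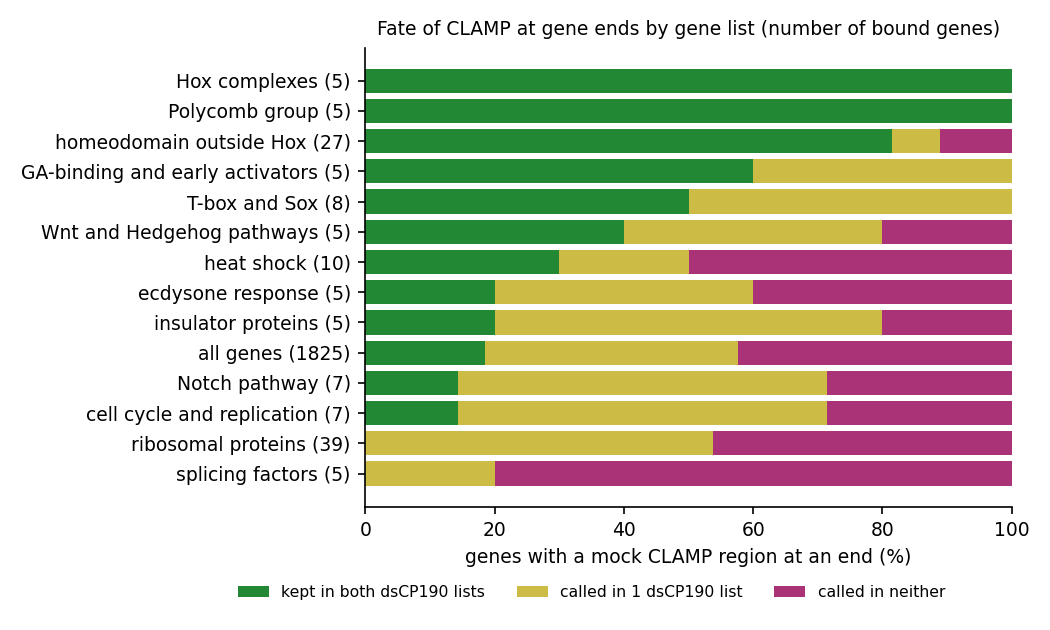
Fate of CLAMP at gene ends in gene lists with at least 5 bound genes, as a share of the genes bound in both mock lists (number in brackets): kept in both dsCP190 lists, called in 1, or called in neither. The histone gene list, with 7 bound genes, is not shown. Hox, Polycomb and homeodomain genes stand at the top, at 5 of 5, 5 of 5 and 22 of 27 kept, and ribosomal protein genes near the bottom, at 0 of 39. The lists are not matched for the strength of their regions.

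Ribosomal protein genes were often bound by CLAMP, and no such gene had a kept region. Of 87 genes for the proteins of the ribosome, 39 (44.8%, 34.8% to 55.3%) had CLAMP at an end in both mock lists, against 11.5% of all genes. Of these, 21 were called in dsCP190 replicate 1 only and 18 were lost. Each of the 39 regions overlapped CP190 of mock cells, against 71.4% of all regions at gene ends. The ribosomal protein regions were mostly weak, with a median fold enrichment of 2.92 and 2.93 in the mock lists, against 12.9 and 13.8 for the homeodomain regions.

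Few ribosomal protein regions were strong, and most of the strong homeodomain regions were stronger still. In the 2 strongest quintiles, dsCP190 replicate 1 called 6 of 6 ribosomal protein regions and 23 of 23 homeodomain regions, and replicate 2 called 0 of 6 and 23 of 23. The 2 lists are not matched for strength within these quintiles. The strongest quintile held 2 of the ribosomal protein and 20 of the homeodomain regions, of which replicate 2 called 0 and 20, and the second held 4 and 3, of which it called 0 and 3. Over all regions of these quintiles the shares in replicates 1 and 2 were 96.0% and 53.0%, and over those at gene ends with CP190 they were 99.3% and 51.0%. These shares pool quintiles that differ. Of all regions, replicate 2 called 588 of 731 in the strongest quintile and 187 of 731 in the second. Of those at gene ends with CP190 it called 121 of 158 and 25 of 128. At RpS19a (chrX:16636935-16638657), fold enrichment was 10.7, 10.2 and 3.54 with no peak in dsCP190 replicate 2. At RpS28a it was 8.84, 10.8 and 6.91, again with no peak in replicate 2. The count of kept genes rests on dsCP190 replicate 2, since without that library 21 of the 39 had CLAMP called.

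Splicing factor genes had no kept region either, but only 5 were bound, and 18.5% of all bound genes had a kept region. Of 21 splicing factor genes, 5 were bound, 4 were lost and 1 was called in dsCP190 replicate 1. All 5 regions overlapped CP190, as did 71.4% of all regions at gene ends. Of 10 bound heat shock genes, which share 9 regions, 5 were lost, 3 were kept and 2 were called in 1 list. The kept region at Hsp27, a small heat shock chaperone (chr3L:9383400-9384300), had 14.8, 16.9, 8.70 and 4.56. Reads at the near-identical Hsp70 and histone gene copies cannot be assigned with certainty, and 7 of 111 histone genes were bound, of which 2 were kept, 2 were called in 1 list and 3 were lost. These 7 histone genes share 5 regions, and the 2 kept genes lie at the same region. Of 2 bound genes of the histone locus body, mxc was called in dsCP190 replicate 1 and Spt6 was lost.

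Of 7 bound Notch pathway genes, dx alone was kept, at 14.1, 23.3, 16.2 and 8.83, 4 were called in 1 list and 2 were lost. Of 5 bound Wnt and Hedgehog genes, wg and dsh were kept. At wg, the Wingless ligand, fold enrichment was 20.9, 22.2, 29.9 and 9.22. Of 7 bound cell cycle genes, dup, a replication licensing factor, was kept, 4 were called in 1 list and 2 were lost. The kept share was 14.3% for the Notch list and for the cell cycle list, near the 18.5% of all bound genes. Binding at a gene is no measure of its expression. Among marker genes of cell types, 2 of 13 for hemocytes and 0 of 8 for neurons were bound at an end. For muscle 2 of 8 were bound and for the germline 1 of 7, against 11.5% of all genes. With regions inside genes counted too, the order differed. Then 4 of 13 hemocyte, 4 of 8 neuron, 3 of 8 muscle and 2 of 7 germline genes had a region, against 16.6% of all genes.

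The genes of CLAMP, of other GA-binding proteins and of insulator proteins were themselves bound in part. The Clamp gene had a kept region (chr2L:22168249-22169488) with a fold enrichment of 11.9, 13.4, 7.95 and 4.95, and CP190 was lost from it. No CLAMP region was called at Cp190 in any list. Of 8 genes for GA-binding proteins and early activators, 5 were bound at an end, of which Clamp, psq and opa were kept. At psq, a GAGA-binding BTB protein, it was 14.9, 15.5, 17.1 and 10.8. Of 20 insulator protein genes, 5 were bound, each with CP190, which overlapped 71.4% of all regions at gene ends. Of the 5, pzg was kept, with a fold enrichment of 13.2, 22.2, 16.05 and 9.91. At su(Hw), the DNA-binding protein of the gypsy insulator, it was 8.93, 10.1 and 4.61, with no peak in dsCP190 replicate 2.

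Several long genes held many CLAMP regions each. Eip75B, a nuclear receptor induced by ecdysone, held 26 regions of both mock lists over 113.7 kb, of which 3 were kept, 12 were called in dsCP190 replicate 1 only and 11 were lost. InR, the insulin receptor, held 16 over 49.1 kb, with 6 kept and 6 lost. Eip74EF, an ecdysone-induced Ets factor, held 14, with 3 kept, 8 called in 1 list and 3 lost. The genes bun, a regulator of growth, and ush, a partner of GATA factors, held 13 each, with 1 and 4 kept. Each of these 5 genes had regions in all 3 classes, so fate varied within a gene. Per 100 kb, Eip75B held 22.9 regions, InR 32.6 and Eip74EF 23.1, so the order by number is not that by density.

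The strongest lost region of all, the single one of the strongest quintile, lay between genes (chrX:22652277-22652944), with a fold enrichment of 9.54 and 10.2 in the mock lists. Among lost regions that could be named by a gene, those with the highest mock rank lay inside genes. Inside Smr, a corepressor of nuclear receptors, 2 lost regions had 7.41 and 10.0 (chrX:12696522-12697416) and 8.13 and 6.06 (chrX:12698989-12699946) in mock replicates 1 and 2. Inside E23, an ecdysone-induced transporter (chr2L:3339315-3339856), the values were 8.87 and 8.28, and inside Rbfox1, an RNA-binding protein, they were 8.54 and 7.502. The other lost regions selected by the same rank lay in nmo, Tomosyn, ASPP and kairos, with mock values between 6.52 and 8.28. All 8 lay away from gene ends. Their mock summits held between 58 and 135 fragments, so they were well counted before the knockdown.

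Several far stronger regions were called in dsCP190 replicate 1 and not in replicate 2. Inside nahoda fold enrichment was 23.6, 20.4 and 13.0 in mock replicates 1 and 2 and dsCP190 replicate 1. Inside Hnf4, a nuclear receptor of lipid metabolism (chr2L:8692311-8693099), it was 15.4, 24.3 and 8.03. At OXA1L, a mitochondrial membrane insertase, it was 14.8, 16.2 and 15.3. The others selected were Got2, rols and mdu, and these 6 regions stood among the strongest mock regions.

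The reverse was rare. The 5 regions called in dsCP190 replicate 2 but not 1 lay in bi, Hr3, Smr, Sdc and 1 place without a named gene, with 13 to 23 fragments at the summit in replicate 2. The 2 gained regions were low in enrichment. Inside Snap25 (chr3L:24174268-24174625) fold enrichment was 1.99 and 2.03 in the dsCP190 lists, at 94 and 90 fragments. The other (chrX:22432806-22433407) had 1.92 and 2.88, at 156 and 167 fragments, with no named gene. Regions called in 1 mock list alone, 682 and 730 in replicates 1 and 2, were weak too. The strongest that could be named by a gene lay at different places inside Pzl. They had 5.12 and 5.40, at only 11 and 7 fragments.

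The small chromosome 4 carried 12 and 12 CLAMP peaks in the mock lists and 8 and 9 in the dsCP190 lists. Of its 10 regions of both mock lists, 5 were kept. Inside zfh2, a zinc-finger homeodomain factor (chr4:501166-503496), fold enrichment was 17.6, 19.1, 13.2 and 8.24. At an end of toy, a Pax6 factor of eye development, it was 14.4, 15.7, 27.5 and 9.75. Inside ey, the other Pax6 gene, it was 11.1, 9.33 and 11.9 with no peak in dsCP190 replicate 2.

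The order among the 801 kept regions compares the same regions in each list. Which regions are kept still depends on the shortest list, since dsCP190 replicate 2 called only 806 of the 3654. Strong mock regions without a call there, such as those inside nahoda and Hnf4, are left out. Counts of regions standing higher or lower therefore cover only regions that passed this filter. A place of 0 marks the strongest region of a list and 100 the weakest. Spearman's correlation of these orders was 0.856 between the mock lists and 0.774 between the dsCP190 lists, and from 0.639 to 0.761 between treatments. Each treatment pair was thus below both replicate pairs. In both dsCP190 lists, 187 regions (23.3%) stood higher than in both mock lists and 198 (24.7%) stood lower.

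The median place of the 23 homeodomain regions in this order was 36.2 and 32.1 in the mock lists and 14.5 and 14.9 in the dsCP190 lists. Of the 23, 12 (52.2%) stood higher in both dsCP190 lists than in both mock lists and 0 stood lower. The other 11 overlapped between treatments, such as ct, gsb, Dll and Dr. Of all kept regions at gene ends without CP190, 40.8% stood higher. Vsx1 was at 23.6 and 18.7 in the mock lists and at 0.749 and 0.125 in the dsCP190 lists. At oc, a head gap gene, the places were 36.2, 32.1, 13.5 and 2.37. At en, the segment polarity gene engrailed, they were 30.8, 27.2, 20.6 and 12.4. Of the 5 Hox regions, 4 stood higher and 0 lower, with medians of 55.7, 34.7, 31.4 and 18.1. The list and this measure were chosen with results of these data known, so the counts are a description.

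**Figure D5:**
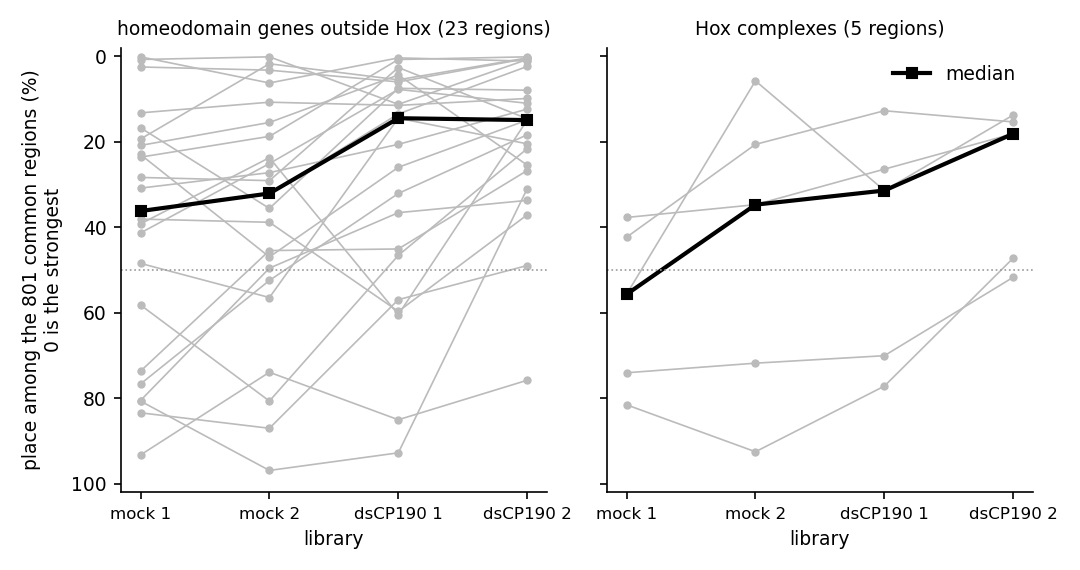
Place of each CLAMP region of homeodomain genes outside Hox (left, 23 regions) and of the Hox complexes (right, 5 regions) among the 801 regions called in all 4 libraries, with the strongest at the top; grey lines are regions and the black line is the median. The homeodomain median lies at 36.2 and 32.1 in mock and at 14.5 and 14.9 in dsCP190 libraries.

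The same order differed by CP190. Of 103 kept regions at gene ends without CP190, 42 (40.8%) stood higher and 10 (9.71%) lower, while of 149 at gene ends with CP190, 26 (17.4%) stood higher and 39 (26.2%) lower. Of 100 regions from which CP190 was lost, 15 (15%) stood higher and 39 (39%) lower. Of 169 at which CP190 was kept, 35 (20.7%) stood higher and 38 (22.5%) lower. Regions that lost CP190 thus stood lower more often than higher, and for regions that kept it the 2 counts were close. These 2 groups pool places, and the order differed by place too. Inside genes 17.9% stood higher and 29.1% lower, at gene ends 27.0% and 19.4%, and between genes 35% and 20%. The part of place in the difference by CP190 was not tested. Hsp27 was at 25.7 and 22.1 in the mock lists and at 67.8 and 58.9 in the dsCP190 lists. In the other direction, a region inside pnt, an Ets factor of receptor tyrosine kinase signalling, was at 66.5, 69.3, 25.8 and 19.7. At disco, a zinc-finger factor, it was at 49.9, 50.1, 12.5 and 2.87. Hsp27, pnt and disco were chosen after their values were seen.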

How the data were processed

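Each of the 4 CLAMP immunoprecipitations had 1 narrowPeak list, deposited per sample. Build dm6 is named in the submitters' processing notes, with MACS2 2.1.1.20160309, Bowtie2 2.3.4.1, deepTools 3.0.2, Picard 2.18.9 and cutadapt 1.16, and no roles. Control library and parameters of the peak calling: not given in the sources used here. The deposited columns of a peak are its −log10 p-value, −log10 q-value, fold enrichment (a ratio), score and summit position, all made by the authors. Input samples were left out. The series' design text names CLAMP knockdown, whereas the sample labels and the title name CP190 knockdown, and the labels were followed.

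Peaks on arms 2L, 2R, 3L, 3R, 4 and X were merged over the lists when they overlapped by 1 bp. The number of fragments at each summit and its local background were recovered from fold enrichment, read as (fragments + 1)/(background + 1), and the Poisson p. For 100% of peaks a whole number gave the deposited −log10 p within 0.001. Relative depth is the median ratio of local backgrounds at shared summits. The lowest −log10 q was 1.30, 1.37, 1.57 and 2.01 in the 4 lists. The recovery and the merging were tested on simulated data. Shares have 95% Wilson intervals, and values per library were compared by two-sided exact permutation tests (SciPy 1.17.1). Regions and genes are not replicates, and a p-value covers only the variation among these samples, possibly technical.

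Genes came from a RefSeq table of the same build without strand or exons. Genes count as bound where a region of both mock lists has its mean mock summit 500 bp or less from either end, and as kept where a region at an end was kept. Of 314 listed symbols, 309 matched. Named regions are the first by mean mock rank in each class, with at most 4 bound members a list as examples, the 5 genes holding most regions, regions on chromosome 4, and Cp190 and Clamp; the text says where others were chosen after their values were seen. The members, lists and tests were chosen with earlier results of these data known. No genome sequence was used here, so the planned search for GA repeats was not run and no sequences are shown.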

Additional observations from a re-analysis of the deposited data

How the results depend on the processing

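Of 116 recomputed values, 93 were labelled the same, 22 moved and 1 changed direction. For measures of a library only the direction was checked, and for counts and the other values the size. The share of peaks overlapping CP190 of mock cells thus counts as the same. Its difference was −4.13 points in the main setting and −0.0276 at a −log10 q of at least 10. The share of peaks at gene ends changed direction: lower by 4.42 points after knockdown, it was 0.715 points higher at that threshold. The cause was not tested. Lost regions, 1461 in all, numbered 57 with lists of equal length, 6 with mock lists cut to the length of the same-numbered dsCP190 list and 672 among regions that reach the threshold after depth scaling. Kept regions, 801 in all, numbered 348 where peaks had to overlap by 50% of each. Gained regions, 2 in all, numbered 1 at a −log10 q of at least 10, 52 at 50% overlap, 27 with summits within 100 bp, 38 at equal length and 9 at same-numbered lengths. The difference in CLAMP calls between lost and kept CP190, −2.45 points, was −12.7 at a −log10 q of at least 10, −11.4 at equal length and 6.80 with summits within 100 bp. Overlap of the strongest peaks between treatments, 78.4% on average, was 72.4% for the strongest 500.

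Leaving out 1 library at a time gave 1466 to 2849 lost, 806 to 2188 kept and 2 to 45 gained regions. The peak ratio ranged from 0.201 to 0.549 and the CP190 difference from −5.42 to 0.528 points. Of ribosomal protein genes, 21 had CLAMP called without dsCP190 replicate 2, and 2 were kept at a window of 1000 bp. Of homeodomain regions, 19 stood higher without dsCP190 replicate 1. Replicate numbers mark no shared batch in the labels. With a replicate block, the paired peak ratio was 0.332 (exact sign-flip permutation p = 0.5). The order among kept regions and the alternatives for the homeodomain and ribosomal protein counts were added after seeing the data. Depth, as measured by local background, limits the weak regions most, since 41.9% of the weakest quintile reached the threshold of dsCP190 replicate 1 after scaling. The planned GA-repeat alternatives were not run.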
